A study of Mus musculus with 6 samples.

Results

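The 10 genes described here encode NF-κB inducing kinase (NIK), the complex that keeps NIK low and the IκB kinase (IKK) complex that NIK acts on, and they were read by symbol as 10 of the 23358 entries of a gene count table. They comprise Map3k14, which encodes NIK itself, the adaptors Traf2 and Traf3, the ubiquitin ligases Birc2 (cIAP1) and Birc3 (cIAP2), the IKK subunits Chuk (IKKα), Ikbkb (IKKβ) and Ikbkg (NEMO), and the ubiquitin-editing and deubiquitinating enzymes Tnfaip3 (A20) and Cyld. RNA was sequenced from 6 spontaneous tumors of female mice, named here by the animal numbers 13, 18, 25, 27, 29 and 36. All 6 mice carried NT3, a NIK transgene that lacks the TRAF3 binding domain and is switched on by Cre, so no tumor without the transgene was compared. Tumors 13, 18 and 25 came from Osx-Cre;NT3 mice, in which Osterix (Sp7) drives a Tet-OFF Cre that doxycycline chow kept off until weaning. Their latencies were 150, 168 and 115 days, and all 3 were on the trunk. Tumors 27, 29 and 36 came from FSP1-Cre;NT3 mice, in which S100a4 drives Cre, with latencies of 101, 72 and 52 days. The study names doxycycline chow for mice with Osx-Cre and their controls, and does not mention it for this line. Tumor 29 was on the trunk, and tumors 27 and 36 were perineal. The strain was C57Bl/6J for the NT3 parent, a mixture of C57Bl/6J with CD1 for the Osx-Cre parent and FVB/n for the FSP1-Cre parent, so line, strain, doxycycline and latency cannot be told apart. Tumor 29, the trunk tumor of the FSP1-Cre;NT3 line, alone separates site from line.

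NIK is made continuously and destroyed continuously. TRAF3 holds it, TRAF2 joins TRAF3 to cIAP1 and cIAP2, and the cIAPs mark NIK for the proteasome. Receptors such as the lymphotoxin-β receptor and CD40 redirect this complex to TRAF3, NIK then accumulates, and through IKKα it drives processing of the Nfkb2 product p100 and entry of RelB into the nucleus. IKKβ and NEMO serve mainly the classical arm of the pathway, on which A20 and CYLD act as brakes by editing ubiquitin chains. The NT3 protein escapes TRAF3. Control of NIK at the protein level is not visible in RNA, and only transcripts are described below. Counts per gene also do not separate reads of the transgene from those of the endogenous Map3k14.

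The promoters of Map3k14, Traf3, Tnfaip3 and Cyld are shown because the first 3 of these genes varied together between tumors and the last, another brake of the pathway, did not. Each sequence holds the 160 bases upstream of a RefSeq start on GRCm38.p6, written 5′ to 3′ on the strand of the gene, and capitals mark matches to the κB consensus, the site that NF-κB dimers bind, on either strand.
Map3k14, chr11:103267402-103267561, minus strand: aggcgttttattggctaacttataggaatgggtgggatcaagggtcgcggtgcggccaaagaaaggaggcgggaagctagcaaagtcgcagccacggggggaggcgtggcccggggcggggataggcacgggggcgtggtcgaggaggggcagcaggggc
Traf3, chr12:111166210-111166369, plus strand: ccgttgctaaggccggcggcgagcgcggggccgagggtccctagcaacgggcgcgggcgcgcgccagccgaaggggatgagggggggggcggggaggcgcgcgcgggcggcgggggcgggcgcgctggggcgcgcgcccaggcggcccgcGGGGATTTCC
Tnfaip3, chr10:19015411-19015570, minus strand: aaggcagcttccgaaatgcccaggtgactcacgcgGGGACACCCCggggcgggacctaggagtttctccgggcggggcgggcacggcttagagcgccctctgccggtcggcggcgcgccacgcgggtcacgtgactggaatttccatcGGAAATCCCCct
Cyld, chr8:88696868-88697027, plus strand: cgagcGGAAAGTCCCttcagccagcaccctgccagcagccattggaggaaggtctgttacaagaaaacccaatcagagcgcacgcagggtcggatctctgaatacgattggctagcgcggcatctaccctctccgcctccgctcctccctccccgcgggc

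The κB consensus was searched on both strands of 14 RefSeq windows of 9 of the 10 genes, each from 250 bases before to 50 bases after a start. Ikbkb was not among the promoters used here. Matches were found for 3 genes. In Traf3 the match GGGGATTTCC spanned bases 10 to 1 before the start. In Tnfaip3 the match GGAAATCCCC, the same letters read on the other strand, spanned bases 12 to 3 before the start, and GGGACACCCC, which matched on both strands, spanned bases 125 to 116. In Cyld the match GGAAAGTCCC spanned bases 155 to 146 before the start. No match was found in the windows of Map3k14, Traf2, Birc2, Birc3, Chuk and Ikbkg, which says only that these letters are not in these windows. Of all 32851 windows of the same length, 8.46% held a match, and of all 27025 genes with a window, 9.55%. These are letters in a reference sequence, and binding was not measured.

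The total counts ranged from 51824408 to 163297772 per tumor, and the lowest count of any of the 10 genes was 2524, so counting error is small beside the spread between tumors. Every deposited count was even. Levels are given as CPM, counts scaled to a library of common size after TMM scaling (which sets libraries to a common scale from the log ratios of most genes), for comparisons of 1 gene between tumors, and as the deposited RPKM, reads scaled to gene length and library size, for comparisons between genes. Tumor 36 stood apart from the other 5, with a mean correlation of log2 CPM across genes of 0.886 against 0.929 to 0.947, so results that rest on it are also given without it. The summed level of 5 simple epithelial markers was 4660.0 CPM in tumor 36 against 566 to 1174 in the others, although Krt18 was higher in tumor 18. That of 4 smooth muscle markers was 2069 against 225 to 507, and that of 4 adipocyte markers 123 against 2.32 to 34.3. The sum of 8 leukocyte markers was 849.8 against 254 to 508. It rested largely on S100a8 and S100a9, at 165 and 269 CPM in tumor 36 against at most 59.6 and 74.6 in the others. Ptprc and Csf1r, at 115 and 195 CPM, were only just above tumor 27, at 113 and 187. Cd3e alone of this list was not highest in tumor 36, at 9.57 CPM against 12.2 in tumor 27. The sum of 6 basal keratinocyte markers was 5687 CPM in tumor 36 against 9956 to 14247. Krt5, Krt14, Krt15 and Trp63 were lowest in tumor 36, but Itga6 and Col17a1 were not. Itga6 was 185 CPM there, below only tumor 25 at 215, and Col17a1 was 149 CPM against 66.3 in tumor 18. The sum of 6 fibroblast markers was 5574 to 7011 CPM in Osx-Cre;NT3 and 11891 to 15018 in FSP1-Cre;NT3 tumors. That of 3 endothelial markers was 79.0 to 202 and 207 to 316 CPM. The lines overlapped in Vim, at 516 CPM in tumor 29 against 707 in tumor 18. They also overlapped in Cdh5 and Kdr, at 73.0 and 33.2 CPM in tumor 29 against 73.4 and 38.0 in tumor 25. Of all genes, 17.0% had lines without overlap, so these sums are not read as a difference between lines. No marker was at 0 in all tumors, and keratin and collagen genes were both abundant in tumors that the study describes as mesenchymal. The study drew on morphology, on staining for smooth muscle actin and vimentin and on where the Cre drivers act. It reported tumor cells without staining for the leukocyte marker CD45 or the melanoma marker S100, and vimentin only at the periphery of FSP1-Cre;NT3 tumors. It also reported areas that stained for an epithelial keratin, and took overlying skin as the likely source of an epidermal signal in the RNA. In such bulk samples fewer cells of a type and less RNA per cell cannot be told apart.

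To ask how much transcript of each component the tumors held, the 10 genes were ordered by mean log2 RPKM. The cIAP genes were the most abundant, with 81.1 ± 23.2 RPKM for Birc2 (SD, n = 6 tumors) and 64.8 ± 14.3 for Birc3. Tnfaip3 followed with 31.9 ± 13.4 RPKM and Traf2 with 23.7 ± 4.04 RPKM. Ikbkb, Map3k14 and Chuk lay close together, at 13.4 ± 2.71, 14.6 ± 7.06 and 13.1 ± 1.56 RPKM. Traf3 had 10.4 ± 4.57 RPKM and Cyld 8.77 ± 1.66 RPKM. Ikbkg was the lowest at 6.49 ± 0.752 RPKM. On the mean over tumors, the NIK transcript and the IKKα transcript were thus at a like level. Within tumors their ratio ran from 0.552 in tumor 18 to 1.62 in tumor 25. The transcripts of the ligases that act on NIK stood several-fold above that of NIK.

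Neighbours in this order were compared within tumors by an exact sign-flip permutation test, two-sided, whose smallest possible p with 6 tumors is 0.03125. Of the 9 pairs, 0 passed after Benjamini-Hochberg adjustment. With this smallest p a pair could pass only if several others reached it too, so the 0 says little. In 3 pairs all 6 tumors went the same way. The difference in log2 RPKM between Birc3 and Tnfaip3 was 1.10 ± 0.54, that between Traf2 and Ikbkb 0.82 ± 0.28 and that between Cyld and Ikbkg 0.42 ± 0.15 (exact permutation p = 0.03125, adjusted p = 0.0938 each). Birc2 was above Birc3 in 5 of 6 tumors, all but tumor 36, with a mean difference of 0.28 ± 0.32 (exact p = 0.125, adjusted p = 0.281). The order of Ikbkb, Map3k14 and Chuk was not resolved, with the higher gene of each neighbouring pair above the other in 3 of 6 tumors. Tnfaip3 and Traf2, Chuk and Traf3, and Traf3 and Cyld did not differ beyond their spread either, with the higher gene above in 4, 3 and 4 of 6 tumors. The order among Map3k14, Chuk and Traf3 depended on the tumor, because Map3k14 and Traf3 varied far more than Chuk.

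**Figure D1:**
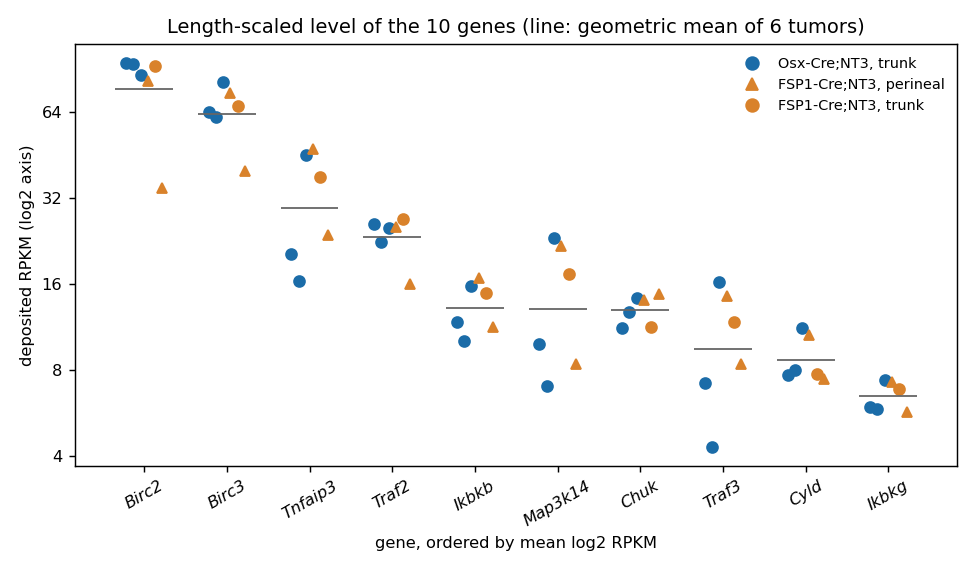
Deposited RPKM of the 10 genes on a log2 axis, 1 point for each of 6 tumors, coloured by line and shaped by site, with a line at the geometric mean and the genes ordered by mean log2 RPKM. Birc2 and Birc3 lie highest and Ikbkg lowest, and the points of Map3k14 and Traf3 spread widely while those of Chuk and Ikbkg lie close together.

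Map3k14, the gene of NIK, measured 54.7 CPM in tumor 13, 38.7 in tumor 18, 118 in tumor 25, 103 in tumor 27, 90.8 in tumor 29 and 43.5 in tumor 36. Tumors 25, 27 and 29 were high and tumors 13, 18 and 36 low, with no tumor between 54.7 and 90.8 CPM. Each set held both lines and both sites were split between them, so the level followed neither. The highest tumor had 3.06 times the CPM of the lowest. The SD of log2 CPM was 0.68 over the 6 tumors, above that of 90.9% of the 4576 genes within 1 log2 unit of its mean level.

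Traf3, whose protein holds NIK for degradation, had the same tumors on top. Its CPM were 66.7, 39.7, 139, 115, 103 and 72.5 in tumors 13, 18, 25, 27, 29 and 36. The SD of log2 CPM was 0.65, above that of 89.3% of 4061 genes of like level. Tnfaip3, which encodes the brake A20 and is a classical target of NF-κB, measured 125, 99.3, 257, 247, 219 and 135 CPM in the same tumors. Again tumors 25, 27 and 29 were highest and tumor 18 lowest, and the SD of 0.58 exceeded that of 81.4% of 1965 genes of like level.

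Traf2, the adaptor between TRAF3 and the cIAPs, did not follow this pattern. Its CPM were 104, 88.7, 93.0, 86.0, 101 and 59.5 in tumors 13, 18, 25, 27, 29 and 36, with tumor 36 lowest and the other 5 within 86.0 to 104. Birc2, the gene of cIAP1, measured 398, 392, 335, 294, 366 and 136 CPM in the same order of tumors. Birc3, the gene of cIAP2 and itself a known target of NF-κB, measured 240.0, 229, 282, 237, 236 and 138 CPM. In all 3 genes tumor 36 was far below the other 5, whose values differed little from each other. Without tumor 36 the lowest Birc2 value was 294 CPM and the lowest Birc3 value 229 CPM. Birc2 and Birc3 are neighbouring genes on chromosome 9 of related sequence (chr9:7818226-7835255 and chr9:7848701-7873170 on mm10), and how reads that match both were counted is uncertain. The part of the marker differences of tumor 36 in its low values was not tested.

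The IKK subunits were steadier. Chuk, the IKKα gene through which NIK acts, measured 52.3, 58.7, 61.5, 55.8, 49.5 and 63.999 CPM in tumors 13, 18, 25, 27, 29 and 36, a range of 1.29-fold. Its SD of log2 CPM was 0.14, above that of 6.84% of 5002 genes of like level, and tumor 36 was the highest and not the lowest. Ikbkg, the gene of the scaffold NEMO, measured 57.1, 55.7, 65.4, 59.5, 62.1 and 51.2 CPM, with an SD of 0.12 that exceeded that of 4.18% of 4954 genes. Ikbkb, the gene of the classical kinase IKKβ, measured 71.1, 60.3, 87.5, 85.8, 84.7 and 63.5 CPM. It had the same 3 tumors on top as Map3k14 but a range of only 1.45-fold. Cyld measured 84.5, 87.0, 113, 98.7, 79.9 and 76.1 CPM, with tumors 25 and 27 highest and tumor 29 among the lower ones.

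**Figure D2:**
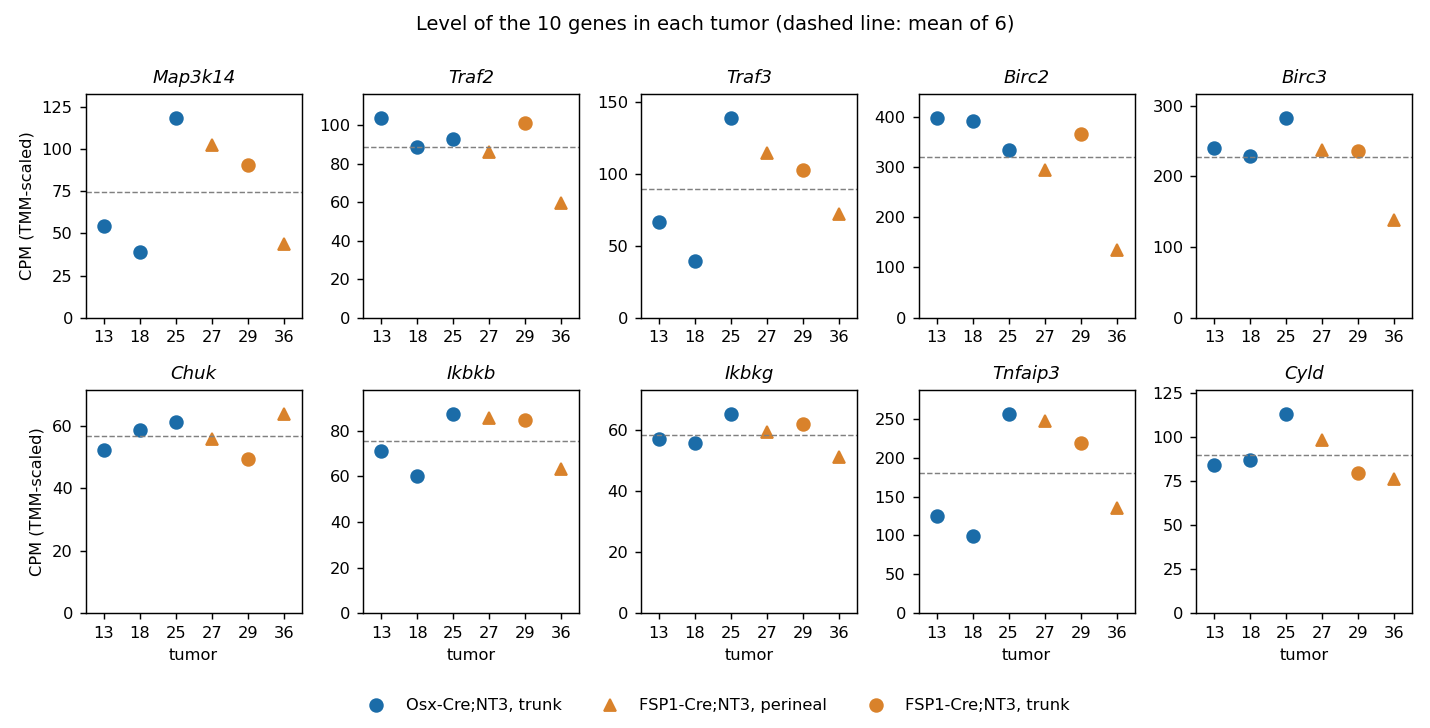
TMM-scaled CPM of each gene (vertical axes, each from 0) in the 6 tumors (horizontal axes), coloured by line and shaped by site, with a dashed line at the mean. Map3k14, Traf3 and Tnfaip3 are high in tumors 25, 27 and 29 and low in the other 3, whereas Traf2, Birc2 and Birc3 are level except for a low tumor 36.

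The shared pattern was described by how near each gene lay to Map3k14 once both were centred on their mean log2 CPM. The root mean square difference over the 6 tumors was 0.16 for Tnfaip3, and 41 of 16414 genes (0.250%) lay nearer to Map3k14. For Traf3 it was 0.22, with 151 genes (0.920%) nearer. For Ikbkb it was 0.41, with 10.1% of genes nearer, and for Birc3, Cyld, Ikbkg, Traf2, Chuk and Birc2 it rose from 0.50 to 0.71, with 17.9% to 44.7% of genes nearer. Tnfaip3 and Traf3 therefore moved with Map3k14 in both direction and size, and Ikbkb in direction with a smaller size. Of the 9 other genes, 4 (Traf3, Ikbkb, Ikbkg and Tnfaip3) had tumors 25, 27 and 29 as their 3 highest, against 13.9% of all 16414 genes. With library sizes alone there were 6 of the 9, Birc3 and Cyld added, against 19.6% of all genes.

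The levels of Map3k14 fell into 2 separate sets of 3 tumors, so no pooled correlation coefficient is given, and within 3 tumors a relation cannot be tested. In an exact permutation test of the correlation with Map3k14 over the 6 tumors, adjusted over all 16414 genes, 0 of the 9 genes passed at an adjusted p under 0.05, as did 0 (0.0%) of all genes. Ikbkb reached the smallest p that the 720 pairings of 6 tumors allow, 0.00139, and its adjusted p in this permutation test was still 0.107. A gene could pass only if many others reached that p too, so the 0 says little. At an unadjusted p under 0.05 there were 4 of the 9 (Ikbkb, Traf3, Tnfaip3 and Ikbkg) and 3039 (18.5%) of all genes.

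A trend with gene length went with this pattern in tumors 13, 18, 25 and 27, but did not part tumor 29 from tumor 36. Each tumor's deviation from the mean log2 CPM was correlated across the 16415 tested genes with gene length, with Spearman coefficients of −0.43 in tumor 13, −0.48 in tumor 18, 0.41 in tumor 25, 0.37 in tumor 27, 0.15 in tumor 29 and 0.13 in tumor 36 (across genes, which are not independent). Long genes were thus relatively low in tumors 13 and 18 and high in tumors 25 and 27, and Traf3, Ikbkg and Cyld are longer than 93.4%, 94.2% and 96.4% of the tested genes and Map3k14 longer than 74.9%. When a smooth trend with length was removed from each tumor, an alternative chosen after seeing the data, Tnfaip3 remained at a difference of 0.17 from Map3k14 with 0.366% of genes nearer, and Traf3 at 0.24 with 1.52% nearer. Both still had tumors 25, 27 and 29 as their 3 highest, now against 11.1% of all genes. Ikbkb and Ikbkg no longer did, and their distances were 0.44 and 0.68, with 17.8% and 57.2% of genes nearer. With GC content removed as well, the differences were 0.18 for both Tnfaip3 and Traf3 and 0.35 for Ikbkb, and Birc3 came to 0.22, with 1.95% of 14825 genes nearer. The likeness of Tnfaip3 and Traf3 to Map3k14 was therefore nearly as close without the length trend, and that of Ikbkg was not.

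**Figure D3:**
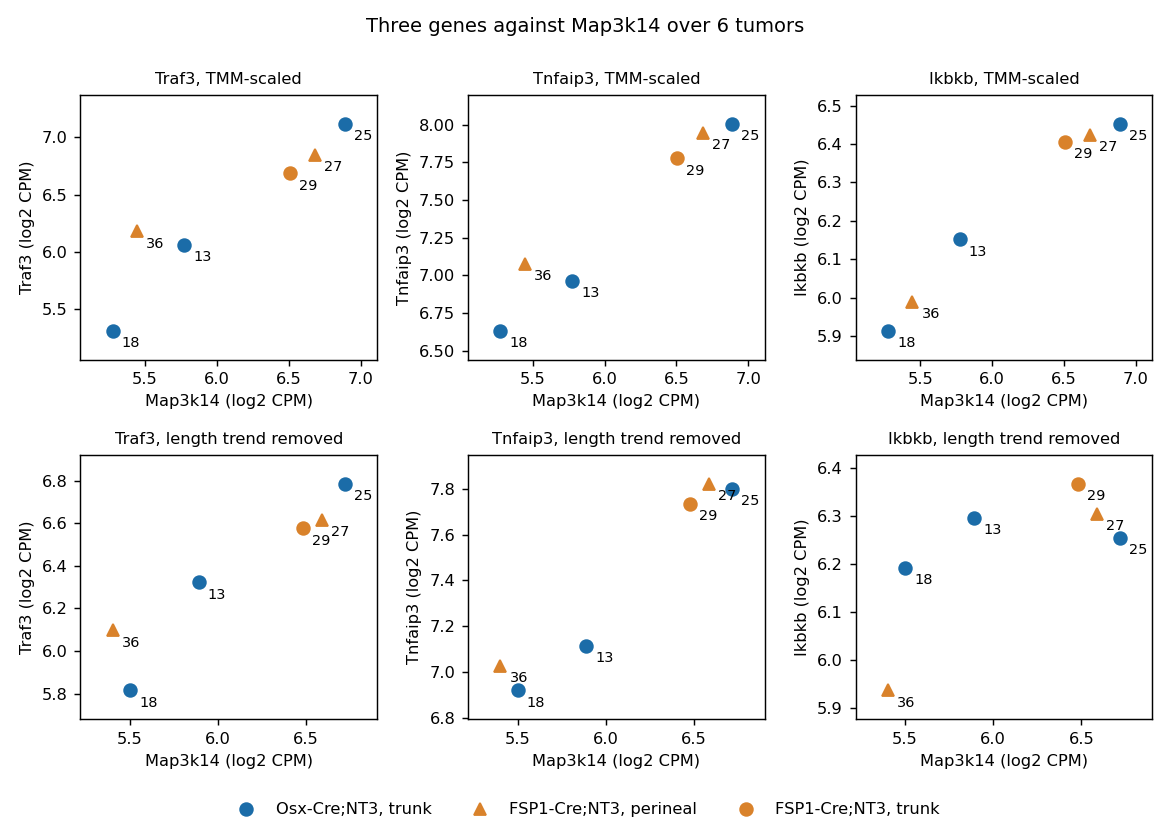
Log2 CPM of Traf3, Tnfaip3 and Ikbkb (vertical axes) against Map3k14 (horizontal axes) in the 6 tumors, TMM-scaled in the upper row and with the trend with gene length removed in the lower row. Tumors 25, 27 and 29 lie apart from 13, 18 and 36 for Map3k14 in both rows; Ikbkb separates them in the upper row and not in the lower row.

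**Figure D4:**
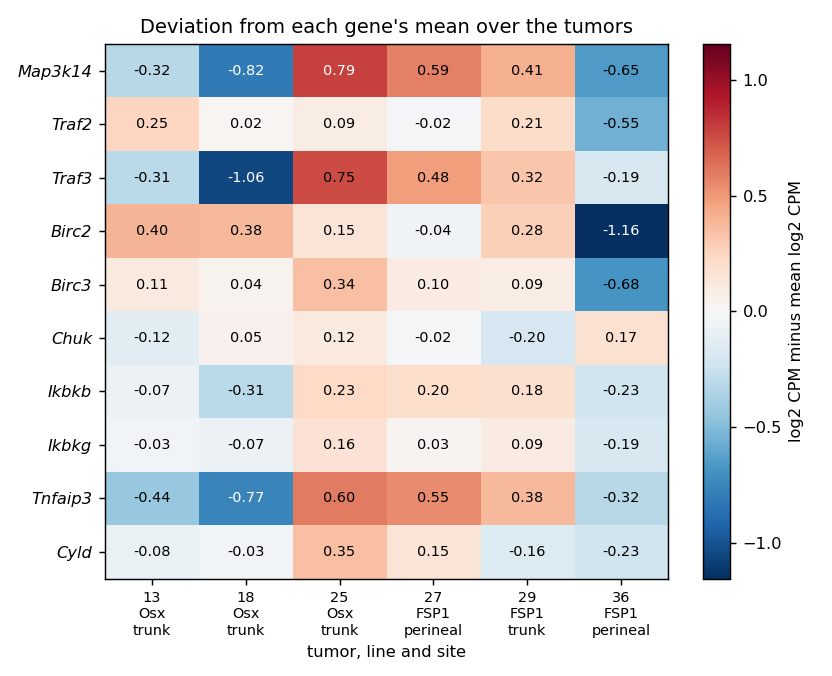
Deviation of log2 CPM from each gene's mean over the 6 tumors, with genes as rows and tumors as columns labelled by line and site, red above and blue below the mean. The rows of Map3k14, Traf3 and Tnfaip3 share their signs in every tumor, and the blue cells of Traf2, Birc2 and Birc3 in tumor 36 are the lowest of their rows.

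Outside the 10 genes, those whose pattern lay nearest to Map3k14 among 14152 tested genes with a mean of at least 1 CPM were Gfod1, Bdkrb2, Edaradd, Ptpn14 and Hs3st3b1, with root mean square differences of 0.058, 0.086, 0.089, 0.096 and 0.099. Gfod1 measured 26.9, 17.8, 53.4, 49.9, 40.1 and 20.98 CPM in tumors 13, 18, 25, 27, 29 and 36. Bdkrb2 encodes a bradykinin receptor, Edaradd the adaptor of the ectodysplasin receptor, Ptpn14 a tyrosine phosphatase and Hs3st3b1 a heparan sulfate sulfotransferase. All 5 had tumors 25, 27 and 29 on top.

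Ratios within a tumor do not depend on the scaling of libraries. The ratio of Map3k14 to Traf3 RPKM was 1.37, 1.63, 1.43, 1.49 and 1.47 in tumors 13, 18, 25, 27 and 29, and 1.00 in tumor 36. It thus stayed within a narrow range in 5 tumors although the RPKM of Map3k14 varied 3.29-fold and that of Traf3 3.76-fold among them, and tumor 36 had relatively more Traf3. The ratio of Map3k14 to Chuk, the kinase to its target, ran from 0.552 in tumor 18 to 1.62 in tumor 25, and that of Traf3 to Traf2 from 0.192 in tumor 18 to 0.642 in tumor 25. Birc3 to Birc2 ran from 0.654 in tumor 18 to 1.14 in tumor 36, the only tumor with more Birc3 than Birc2. Chuk to Ikbkb ran from 0.757 in tumor 29 to 1.31 in tumor 36, and Tnfaip3 to Cyld from 2.05 in tumor 18 to 4.92 in tumor 29. The lines overlapped in all 6 ratios, with exact two-sided permutation p-values from 0.2 to 0.9 (adjusted p from 0.72 to 0.9, smallest p possible 0.1). Without tumor 25 the lines did not overlap in 3 of the ratios, without tumor 36 in 2 and without any other tumor in 0. Fewer tumors in a line separate more easily, and the share over other pairs of genes was not counted. These counts are therefore not read as a difference between lines.

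To compare the lines, which differ in the promoter that drives Cre, all genes were fitted with edgeR (quasi-likelihood F-test, p-values adjusted by Benjamini-Hochberg over 16415 genes). Of the 10 genes 0 differed between the lines, and of all genes 0 (0.0%) did. At an unadjusted p under 0.05 there were 0 of the 10 and 1770 (10.8%) of all genes, and DESeq2 called 0 of the 10 and 420 (2.56%) of all genes. Map3k14 had 70.6 ± 42.2 CPM in Osx-Cre;NT3 and 79.0 ± 31.3 CPM in FSP1-Cre;NT3 tumors (SD, n = 3), a log2 fold change of 0.16 (SE 0.49, edgeR adjusted p = 0.900). Birc2 had 375 ± 34.8 and 265 ± 118 CPM, a log2 fold change of −0.50 (SE 0.36, edgeR adjusted p = 0.566). Without tumor 36 it was −0.19, with site as a covariate −0.06 and among trunk tumors alone −0.04, and Tnfaip3 then had the greater differences, 0.54, 0.45 and 0.45. Tnfaip3 had a log2 fold change of 0.32 (SE 0.41) and Traf3 of 0.24 (SE 0.45), and those of the remaining genes lay between −0.30 and 0.10. Fold changes were positive in 4 of the 10 genes with a median of −0.04, against 0.01 over all genes tested.

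In 0 of the 10 genes did the CPM of the 3 tumors of one line lie wholly above those of the other, against 17.0% of all genes. Tumor 25 decided much of this. It was the highest of all tumors in Map3k14, Traf3, Birc3, Ikbkb, Ikbkg, Tnfaip3 and Cyld, while tumors 13 and 18, of the same line, were among the 3 lowest in Map3k14, Traf3, Ikbkb and Tnfaip3. Without it the log2 fold changes were 0.72 for Map3k14, 0.82 for Traf3 and 0.79 for Tnfaip3, and none passed after adjustment (edgeR adjusted p = 0.317, 0.173 and 0.176). The edgeR unadjusted p was 0.0375 for Traf3 and 0.0392 for Tnfaip3, which made 2 of the 10 genes under 0.05, against 4245 (25.2%) of the 16820 genes then tested.

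Sites were compared in the same way, with tumors 27 and 36 against the 4 trunk tumors, over 16971 genes. Of the 10 genes 0 differed between the sites, and of all genes 0 (0.0%) did. At an unadjusted p under 0.05 there were 0 of the 10 and 1784 (10.5%) of all genes, and DESeq2 called 0 of the 10 and 603 (3.55%) of all genes. Birc2 had 372 ± 28.8 CPM in trunk (SD, n = 4) and 215 ± 112 CPM in perineal tumors (n = 2), a log2 fold change of −0.80 (SE 0.34, edgeR unadjusted p = 0.0510, adjusted p = 0.478). This rested mostly on tumor 36, since the log2 fold change was −0.34 without it and −1.50 without tumor 27 (edgeR adjusted p = 1.00 and 0.0972). Traf2 had 96.7 ± 7.04 and 72.7 ± 18.8 CPM, a log2 fold change of −0.42 (SE 0.23, edgeR adjusted p = 0.552), and Birc3 247 ± 23.9 and 188 ± 70.0 CPM, a log2 fold change of −0.40 (SE 0.28, edgeR adjusted p = 0.603). Without tumor 36 these were −0.17 and −0.06. Those of the other 7 genes lay between −0.12 and 0.12. Fold changes were positive in 3 of the 10 genes, with a median of −0.06 against −0.02 over all genes tested.

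Both perineal tumors lay below all trunk tumors in 2 of the 10 genes, Traf2 and Birc2, against 9.57% of all genes, and above them in 0, against 9.98%, which makes 2 of the 10 without overlap against 19.6%. In Traf2 the higher perineal tumor, at 86.0 CPM, was only just under the lowest trunk tumor, at 88.7 CPM. Map3k14 itself had 75.7 ± 35.9 CPM in trunk and 73.1 ± 41.8 CPM in perineal tumors. Both perineal tumors were of the FSP1-Cre;NT3 line, so within this line 2 tumors stood against 1, with a log2 fold change of −0.78 for Birc2 (SE 0.59, edgeR adjusted p = 0.993).

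**Figure D5:**
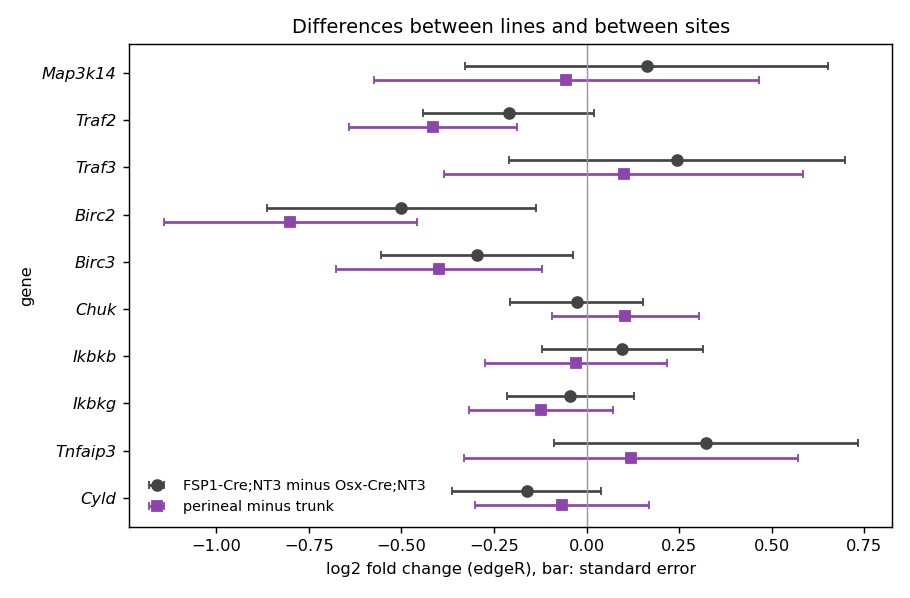
Log2 fold change of each gene from edgeR (horizontal axis) with its standard error, for FSP1-Cre;NT3 minus Osx-Cre;NT3 tumors (circles) and perineal minus trunk tumors (squares). In these 2 fits over all 6 tumors Birc2 lies furthest from 0, at −0.50 and −0.80, and 0 of the 10 genes passed the test in either comparison.

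Around the 10 genes, 45 further genes of the pathway in 5 lists were all tested. Of these, 0 differed between the lines and 0 between the sites after adjustment, and 1 and 0 had an unadjusted p under 0.05, against 10.8% and 10.5% of all genes. The 1 gene was Tank, an adaptor of the kinases TBK1 and IKKε, which measured 142, 174 and 143 CPM in Osx-Cre;NT3 and 117, 112 and 85.8 CPM in FSP1-Cre;NT3 tumors. The log2 fold change was −0.55 (SE 0.20, edgeR unadjusted p = 0.0288, adjusted p = 0.458). The lines did not overlap in 2 of the 45 genes, Tank and Rnf11, against 17.0% of all genes. Between the lines, fold changes were positive in 3 of 6 receptors (median −0.03), 5 of 7 ligands (0.36), 8 of 14 other kinases and adaptors (0.03), 6 of 12 ubiquitin enzymes and partners (0.01) and 2 of 6 NF-κB subunits and inhibitors (−0.15), with a median of 0.01 over all genes tested. Between the sites, they were positive in 4 receptors (median 0.16), 5 ligands (0.38), 6 kinases and adaptors (−0.06), 5 ubiquitin enzymes (−0.04) and 2 subunits and inhibitors (−0.31), with a median of −0.02 over all genes tested.

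The levels of these genes set the scale of the pathway. Among receptors that release NIK, Ltbr, the lymphotoxin-β receptor, was the most abundant with 29.5 ± 3.32 RPKM (SD, n = 6), and it varied little, from 66.1 to 84.1 CPM. Tnfrsf13c, the BAFF receptor of B cells, was the least abundant with 0.219 ± 0.169 RPKM. Among their ligands, Ltb, which encodes lymphotoxin-β, had 36.9 ± 10.2 RPKM and Cd40lg 0.404 ± 0.221 RPKM. Ltb and Ltbr were thus each the highest of their list, whereas Lta, the other lymphotoxin gene among the ligands, had 0.566 to 1.46 RPKM. Among kinases and adaptors, Cdc37, a co-chaperone of HSP90 that IKK requires, had 76.9 ± 13.0 RPKM and Tab3, a partner of TAK1, 3.10 ± 0.717 RPKM. Of the ubiquitin enzymes and partners, Tax1bp1, an adaptor of A20, was highest with 78.7 ± 24.0 RPKM, although without tumor 36 it had 69.1 and Tnip1, another partner of A20, 69.5 RPKM, and Otud7b, a deubiquitinase of TRAF3, was lowest with 5.65 ± 1.19 RPKM. Of the subunits and inhibitors, Nfkbia, which encodes IκBα, had 341 ± 90.5 RPKM and Rel 1.93 ± 0.828 RPKM. Nfkbia was 355 CPM in tumor 36 against 594 to 867 CPM in the others, so it was low in the same tumor as Traf2, Birc2 and Birc3. Relb, at 85.3 CPM against 195 to 230, and Nfkb2, at 190 against 308 to 583, were also lowest there. Rela was only just lowest there, at 64.7 CPM against 68.4 in tumor 18, and Nfkb1 and Rel were not lowest in tumor 36.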

How the data were processed

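Whole tumors of 6 mice were sequenced on an Illumina HiSeq2500. Per the study's methods, trimming was followed by alignment to mm10 with HISAT2 on Galaxy and by counting per gene with featureCounts; the submitters' processing notes name bcl2fastq, TopHat2 2.0.6 and HTSeq. The annotation, the strandedness and the treatment of reads that match several genes are not given in the sources used here. The deposited counts are raw counts per gene, and the deposited RPKM values were scaled by the authors for gene length and library size. Columns of the table were assigned by tumor number, and 0 columns of sample values were left unused. The table holds 43 entries with a repeated symbol, none of them among the 10 genes.

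The members and lists were chosen with earlier results of these data known. Counts were fitted with edgeR 4.0.16 in R 4.3.3 (filterByExpr, TMM, glmQLFit, glmQLFTest, Benjamini-Hochberg over all genes tested, threshold 0.05), once by line and once by site, without covariates. Log2 CPM used a prior count of 2. Exact tests used all 64 sign flips, 20 splits and 720 pairings of the 6 tumors. The relation to Map3k14 had been planned with adjustment over the 9 other genes alone, by which 4 would have passed; since these genes were chosen with results known, it was adjusted over all genes, by which 0 did. Alternatives were DESeq2 1.42.0, library sizes alone, upper-quartile scaling, other filters, site as a covariate, trunk or FSP1-Cre;NT3 tumors alone and each tumor left out; halved counts and removal of per-tumor trends with gene length or GC content (natural splines, centred on their median) were added after seeing the data. The fits were tested on simulated data first. Pathway genes are named where their unadjusted p was under 0.05, or where they were the most or least abundant of their list by RPKM. Some others are named beside these for comparison. Promoter windows came from RefSeq, GRCm38.p6. Each p-value weighs a difference or a relation against the spread between tumors.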

Additional observations from a re-analysis of the deposited data

Results flagged for a closer look

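Of 16 quantities examined over the 6 tumors (log2 CPM of the 10 genes and the 6 log2 ratios), 4 had an extreme tumor. Its gap to the nearest neighbour exceeded Dixon's 95% limit for 6 values, where chance alone gives about 1 in 20. The 16 quantities share genes, and the share of all genes past this limit was not counted, so the 4 are not read as an excess. In all 4 quantities the extreme tumor was tumor 36, a perineal FSP1-Cre;NT3 tumor, and it lay low. Its log2 CPM was 5.89 for Traf2, with the next tumor at 6.43, 7.08 for Birc2, with the next at 8.20, and 7.11 for Birc3, with the next at 7.84. The log2 ratio of Map3k14 to Traf3 was 0.0054 in tumor 36, with the next tumor at 0.45. Tumor 36 also stood apart over all genes, and its sums of simple epithelial, smooth muscle, leukocyte and adipocyte markers were the highest of the 6. Its sum of basal keratinocyte markers was the lowest, although single markers of several lists did not follow their sums. The part of these differences in the 4 values was not tested.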

How the results depend on the processing

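With 3 tumors in a line and 2 perineal tumors, leaving out 1 tumor shifted many values; the lowest count behind them was 2524. None of the 10 genes was called between lines or sites in the alternatives run. Since the counts reported were 0 this says little about stability, and with 5 tumors the exact sign-flip test of neighbours cannot go below p = 0.0625. The number of all genes called was 420 between lines and 603 between sites with DESeq2, against 0 with edgeR. Without each tumor in turn it stayed at 0 between lines and ran from 0 to 567 between sites, with 567 without tumor 27, when tumor 36 alone stands for perineal tumors and is assumed to vary like the others, and 2 without tumor 25. The ratios without overlap between lines ran from 0 to 3. Library sizes alone moved the median log2 fold change of all genes between lines to 0.13.

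Of 310 recomputed log2 fold changes of the 10 genes, 270 kept their sign and 40, none of them called in any fit, did not. With library sizes alone these were 0.081 for Chuk and 0.069 for Ikbkg between lines, and 0.047 for Map3k14, 0.069 for Ikbkb and 0.037 for Cyld between sites. Chuk was 0.0048 between lines with upper-quartile scaling. Between lines, Traf2 was 0.071 and Ikbkg 0.046 with site as a covariate, and 0.086 and 0.060 in trunk tumors alone. Within FSP1-Cre;NT3 tumors the site values were −0.14 for Traf3, −0.21 for Tnfaip3 and 0.12 for Cyld. With the length trend removed, Cyld between lines moved from −0.16 to −0.50 (edgeR unadjusted p = 0.0248, adjusted p = 0.383), and to −0.38 with GC too. With the length trend removed, Ikbkb was −0.033 between lines and Traf3 −0.036 between sites. With the GC trend removed too, Map3k14 was −0.044, Traf3 −0.018, Chuk 0.090 and Ikbkb −0.11 between lines, and Traf3 was −0.10 between sites. Without each tumor in turn, the line values ran from −0.14 to 0.72 for Map3k14, −0.090 to 0.82 for Traf3, −0.13 to 0.033 for Chuk, −0.028 to 0.22 for Ikbkb and −0.13 to 0.033 for Ikbkg. The site values ran from −0.82 to 0.44 for Map3k14, −0.28 to 0.40 for Traf3, −0.29 to 0.18 for Ikbkb, −0.40 to 0.49 for Tnfaip3 and −0.29 to 0.11 for Cyld. The cause of these changes was not tested. No paired analysis was possible because the tumor numbers of the lines are different animals and none is shared. The relation to Map3k14 was not rerun as a test without the 2 tumors farthest from its median, since 4 tumors allow no adjusted call.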
